A study of Mus musculus with 15 samples.

Results

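The genes described here are 10 adipocyte genes measured in whole mouse ovary, chosen by name from a table of 27907 genes. Of these, 7 are genes of white adipocytes (Adipoq, Plin1, Cidec, Lep, Retn, Car3 and Cfd), and 3 are genes used to mark brown adipocytes (Ucp1, Cidea and Adrb3). Ovaries came from 6-month-old female mice in estrus: 7 mice homozygous for the HSD17B1 Ser143Ala mutation (HSD17B1-KI) and 8 wild-type (WT) mice bred, like them, from heterozygous parents. The mutation, made by CRISPR/Cas9 in 1 mouse line, replaces a serine of the catalytic triad of hydroxysteroid 17-beta dehydrogenase 1, an enzyme of estradiol synthesis, and every cell of the mouse carries it. Neither the labels nor the methods say how the ovary was freed of surrounding fat, or whether 1 or both ovaries entered a library. RNA was read by stranded mRNA sequencing, with 1 library per mouse by the labels. For HSD17B1-KI mice of this age the methods give a smaller number of RNA samples than the 7 libraries labelled so. A figure caption of the paper gives 7 for its ovarian expression measurements at this age, the number of labelled libraries. The comparison asks whether adipocyte transcripts differed between the genotypes, and which of them varied together from mouse to mouse.

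The mouse ovary lies within the bursa beside a pad of white fat, and the oviduct is attached to it, so that a dissected ovary may carry both. White adipocytes store triglyceride in 1 large droplet and secrete hormones such as leptin and adiponectin, whereas brown adipocytes hold many small droplets and burn fatty acids to give heat through the uncoupling protein UCP1. Some genes used as adipocyte markers are also transcribed elsewhere. Steroidogenic cells of the ovary hold droplets of cholesterol esters, and proteins that coat or break down droplets are shared between cell types.

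The ovarian origin of the libraries was plain from their content. The summed normalized count of 5 theca and interstitial genes lay between 401097 and 984113 in each mouse, and that of 4 oocyte genes between 3923 and 7877. The 7 members that varied together (described below) together made up 0.00232% to 0.0490% of the reads of a mouse. Recovered reads per library ranged from 26544745 to 72362981. In 6 mice (HSD17B1-KI 1 and 3, WT 1, 2, 7 and 8), Foxj1, a transcription factor of ciliated cells that the oviduct epithelium holds, exceeded 1500 normalized counts, against at most 176 in the other 9. In bulk ovary, fewer cells of a type and less RNA per cell cannot be told apart.

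Sequence just before the start site is shown for a few members, because the result below separates Plin1 from Adipoq, Lep and Cidec. RefSeq windows were found for 7 of the 10 members (GRCm38.p6, the mm10 assembly). Each holds 250 bases up to the base before the start site, 5′ to 3′. Capitals mark TTGCNNAA, a form of the site bound by C/EBP factors, searched on both strands. For Cidec the window shown is that of the inner of 2 start sites, the one that holds a match. The windows lie at chr16:23146286-23146535 (Adipoq, plus strand), chr6:29059971-29060220 (Lep, plus strand), chr6:113434765-113435014 (Cidec, minus strand) and chr7:79732777-79733026 (Plin1, minus strand).
Adipoq: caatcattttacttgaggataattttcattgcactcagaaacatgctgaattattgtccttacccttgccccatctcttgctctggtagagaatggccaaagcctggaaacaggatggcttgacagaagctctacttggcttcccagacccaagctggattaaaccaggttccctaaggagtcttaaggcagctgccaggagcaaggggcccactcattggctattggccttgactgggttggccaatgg
Lep: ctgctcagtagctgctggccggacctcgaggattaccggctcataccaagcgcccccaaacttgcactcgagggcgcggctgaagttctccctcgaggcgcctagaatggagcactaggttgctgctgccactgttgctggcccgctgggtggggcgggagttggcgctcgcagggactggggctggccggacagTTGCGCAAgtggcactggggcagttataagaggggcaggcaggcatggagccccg
Cidec: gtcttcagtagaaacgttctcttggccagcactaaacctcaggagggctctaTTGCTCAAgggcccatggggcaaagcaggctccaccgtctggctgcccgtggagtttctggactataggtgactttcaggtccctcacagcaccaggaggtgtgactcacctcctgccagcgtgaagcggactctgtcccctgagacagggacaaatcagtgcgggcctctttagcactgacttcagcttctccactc
Plin1: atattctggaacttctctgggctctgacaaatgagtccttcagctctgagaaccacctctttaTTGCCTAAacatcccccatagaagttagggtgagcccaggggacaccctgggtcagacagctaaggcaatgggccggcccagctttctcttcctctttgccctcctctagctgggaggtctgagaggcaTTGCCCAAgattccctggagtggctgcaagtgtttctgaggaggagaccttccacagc

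TTGCNNAA was found in 9.56% of 32851 RefSeq windows of this length. It stood once in the window of Lep, 55 bases before the start site, once in the window of the inner start site of Cidec, 198 bases before it, and at 2 places in that of Plin1, 187 and 58 bases before it. The windows of Adipoq, Retn, Cfd, Ucp1 and the outer start site of Cidec held no match.  A match is a string of letters only.

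Adipoq encodes adiponectin, a hormone made almost only by adipocytes, and its gene lies at chr16:23146536-23158028 on the plus strand (mm10). Its normalized count was 214, 141, 1638, 834, 945, 507 and 47.7 in HSD17B1-KI mice 1 to 7. In WT mice 1 to 8 it was 2347, 1334, 353, 1701, 1557, 1587, 2376 and 775. The groups overlapped, but 3 HSD17B1-KI mice lay below the lowest WT mouse and 6 of 7 lay below the WT mean of 1504 ± 697 (SD, n = 8), and the mean of the HSD17B1-KI mice was 618 ± 566 (SD, n = 7). The log2 fold change, given throughout as HSD17B1-KI minus WT on the log2(normalized count + 1) scale, was -1.82 ± 0.65 (SE). It did not pass the test across all genes (limma, adjusted p = 0.328), while the exact permutation test of the single gene gave p = 0.0222, two-sided and unadjusted.

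The other secreted products of white fat were also lower in HSD17B1-KI mice in their medians, with overlapping groups. Lep encodes leptin, the hormone that reports fat stores to the brain (chr6:29060220-29073877). It ranged from 14.1 to 428 in HSD17B1-KI mice (median 159) and from 73.7 to 981 in WT mice (median 326). Its log2 fold change was -1.76 ± 0.74 (SE), with limma's adjusted p = 0.432 and an exact permutation p of 0.0524. Again 3 HSD17B1-KI mice lay below the lowest WT mouse.

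Retn encodes resistin, which mouse white adipocytes secrete (chr8:3655770-3660110). It ranged from 16.3 to 598 in HSD17B1-KI mice (median 158) and from 154 to 843 in WT mice (median 581). Its log2 fold change was -1.69 ± 0.63 (SE), with limma's adjusted p = 0.350 and an exact permutation p of 0.0219. Cfd encodes complement factor D, also called adipsin, a serine protease of the alternative complement pathway (chr10:79890853-79892655). It ranged from 96.5 to 3365 in HSD17B1-KI mice (median 1207) and from 725 to 4730 in WT mice (median 3052). Its log2 fold change was -1.62 ± 0.63 (SE), with limma's adjusted p = 0.388 and an exact permutation p of 0.0272.

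Of the members that work inside the white adipocyte, Cidec and Car3 had lower medians in HSD17B1-KI mice, and Plin1 a higher one. Cidec encodes a protein that fuses lipid droplets into a single large one (chr6:113424634-113435760). It ranged from 28.2 to 950 in HSD17B1-KI mice (median 332) and from 211 to 1443 in WT mice (median 812), with a log2 fold change of -1.53 ± 0.65 (SE), limma's adjusted p = 0.441 and an exact permutation p of 0.0508. Car3 encodes carbonic anhydrase 3, an abundant cytosolic enzyme of white fat, liver and skeletal muscle (chr3:14863512-14872523). It ranged from 881 to 9032 in HSD17B1-KI mice (median 2763) and from 2591 to 13135 in WT mice (median 8111), with a log2 fold change of -1.27 ± 0.51 (SE), limma's adjusted p = 0.403 and an exact permutation p of 0.0441.

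Plin1 encodes perilipin 1, the coat of the adipocyte droplet that keeps lipases away until it is phosphorylated (chr7:79720218-79732903, minus strand). Its normalized count was 2269, 2564, 2930, 1708, 1246, 1337 and 2119 in HSD17B1-KI mice 1 to 7. In WT mice 1 to 8 it was 1198, 1099, 1114, 1798, 1436, 1619, 2170 and 1272. Here the HSD17B1-KI mice were on the higher side: 3 lay above the highest WT mouse, and the log2 fold change was 0.44 ± 0.20 (SE), with limma's adjusted p = 0.463 and an exact permutation p of 0.0591. Over all mice Plin1 spanned only 2.67-fold from lowest to highest, against 49.8-fold for Adipoq.

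The 3 brown adipocyte genes differed from one another. Ucp1, whose protein makes brown fat produce heat and which defines that cell type, was at or near 0. It had 6 reads over the 7 HSD17B1-KI mice and 9 reads over the 8 WT mice, it was at 0 in 6 mice, and its highest value was 3.66 normalized counts in HSD17B1-KI 5. A count of 0 allows up to 3 reads, which is 1.94 to 5.09 normalized counts depending on the library and covers counting error only. Its mean of 0.975 normalized counts was below the minimum of 2 for the test across genes, and no fold change is given.

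Adrb3 encodes the beta-3 adrenergic receptor, through which noradrenaline drives lipolysis in white and brown adipocytes of mice (chr8:27225776-27250616, minus strand). Its normalized count was 53.4, 25.9, 318, 168, 249, 58.3 and 11.9 in HSD17B1-KI mice 1 to 7. In WT mice 1 to 8 it was 385, 194, 109, 370, 211, 331, 331 and 232. In 4 HSD17B1-KI mice it lay below the lowest WT mouse. The log2 fold change was -1.73 ± 0.59 (SE), with limma's adjusted p = 0.296, the lowest among the members, and an exact permutation p of 0.0180. Adrb3 overlaps the antisense gene Gm45470 on the opposite strand, which was not analysed here, and the strand setting of the counting is not given in the sources used here.

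Cidea encodes a droplet protein related to that of Cidec and is abundant in brown fat. Its normalized count was 181, 5.18, 90.5, 8.40, 12.2, 10.7 and 6.51 in HSD17B1-KI mice 1 to 7. In WT mice 1 to 8 it was 273, 50.5, 3.30, 6.41, 11.01, 8.75, 60.2 and 364. It thus fell into 2 levels in both genotypes, with 9 mice at 12.2 or less and 6 mice at 50.5 or more. The log2 fold change of -0.72 ± 1.04 (SE) had a 95% interval from -2.92 to 1.49, limma's adjusted p was 0.866 and the exact permutation p was 0.533. Leaving out single mice moved this fold change between -1.25 and -0.22, and DESeq2 gave -1.11. Cidea is overlapped on the opposite strand by B430212C06Rik, a non-coding transcript with 18.8 to 73.0 normalized counts in 5 of the 6 mice with high Cidea, 12.04 in the sixth, and at most 3.75 in the other 9. Reads of the pair cannot be told apart if strand was not used.

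**Figure D1:**
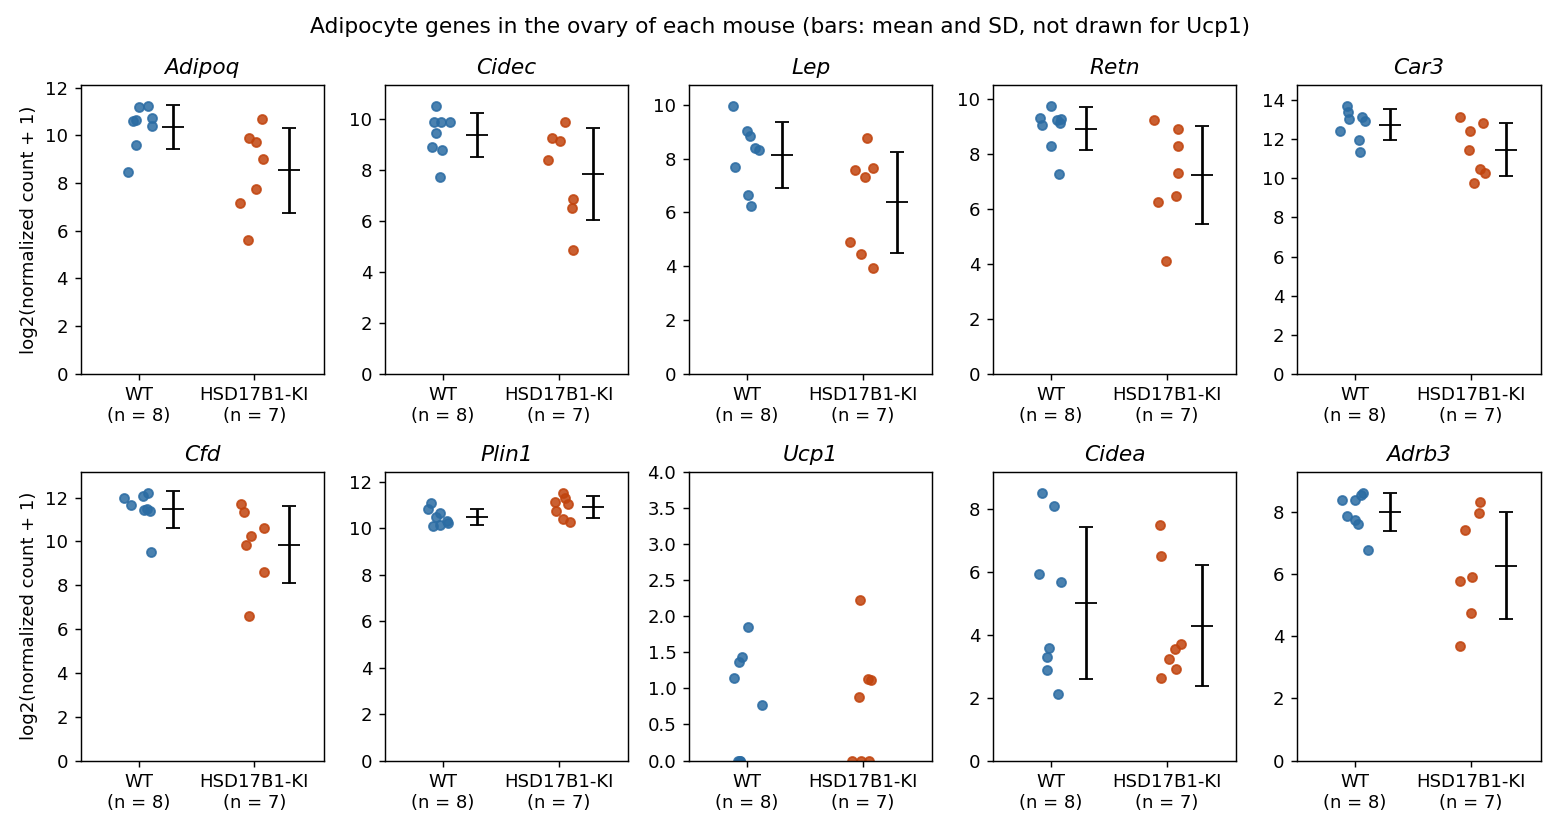
Each point is the ovary of 1 mouse (blue, 8 WT; red, 7 HSD17B1-KI), on a scale of log2(normalized count + 1), with the mean and SD beside it except for Ucp1. Adipoq, Cidec, Lep, Retn, Car3, Cfd and Adrb3 reach lower in HSD17B1-KI mice with overlapping groups, Plin1 sits in a narrow band of 1099 to 2930 normalized counts, Ucp1 stays at 3.66 or less, and Cidea falls into 2 levels in each genotype.

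As a count over the members, none of the 9 tested passed an adjusted p of 0.05 in limma. Among all 21525 genes tested, 46 passed (0.214%). At an unadjusted p under 0.05 in limma, 7 of the 9 were lower and 1 (Plin1) was higher in HSD17B1-KI mice, whereas 4.64% of all genes were lower and 5.36% higher at that threshold. The members are not independent of each other, since 7 of them rose and fell together from mouse to mouse. DESeq2 on recovered reads passed none of the members either (lowest adjusted p = 0.248, Plin1), beside 2.3% of all genes, and had 4 members lower and 1 higher at an unadjusted p under 0.05, where 5.65% of all genes were lower and 4.58% higher. edgeR passed none (lowest adjusted p = 0.359), beside 0.232% of all genes, and had 1 lower and 1 higher at that unadjusted threshold, where 6.2% of all genes were lower and 5.46% higher. The exact permutation p was under 0.05 and the level lower for 5 members (Adipoq, Retn, Car3, Cfd and Adrb3), against 4.44% of all genes.

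The size also depended on the tool. On recovered reads, DESeq2 and edgeR gave the 7 members that varied together log2 fold changes between -0.94 (Car3) and -1.32 (Lep), with -1.28 for Adipoq, -1.09 for Adrb3, -1.11 for Retn and, for Cidec, -0.99 by DESeq2 and -0.98 by edgeR, where limma on log2 values gave -1.27 to -1.82. The ratio of the mean normalized counts, HSD17B1-KI to WT, was 0.399 (Lep) to 0.522 (Car3).

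Single mice decided several of the exact tests. For Adipoq and Adrb3 the p stayed under 0.05 without any 1 of the 15 mice, with highest values of 0.0486 and 0.0353, both without HSD17B1-KI 7. For Retn it rose to 0.0536 without HSD17B1-KI 7. For Cfd it passed 0.05 without HSD17B1-KI 2 or 7 or WT 1, 4 or 6 (up to 0.0619), and for Car3 without HSD17B1-KI 1, 2, 6 or 7 or any WT mouse other than 3 and 8 (up to 0.0922). Conversely, Cidec fell under 0.05 without HSD17B1-KI 3, 4 or 5 or WT 3, Lep without HSD17B1-KI 3, 4, 5 or 6 or WT 3 or 8, and Plin1 without HSD17B1-KI 5 or 6 or WT 4 or 7. The lowest values were 0.0167, 0.0200 and 0.0230.

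The members were then compared by their variation over the 15 mice. Cidec (r = 0.987), Car3 (0.976), Retn (0.970), Cfd (0.965), Adrb3 (0.964) and Lep (0.951) followed Adipoq closely on the log2 scale, each with an adjusted permutation p of 0.00936 over 21524 genes. That p rests on the smallest value that 100000 resamples can give. Spearman's rho was 0.971, 0.993, 0.907, 0.904, 0.929 and 0.954 in the same order, with an adjusted permutation p of 0.0294 for Retn and Cfd and of 0.0135 for the other 4. Only 0.158% of all genes (34) had a positive r with Adipoq past this threshold. Adrb3, listed here as a brown fat gene, was among them, with an r in the range of the white fat genes.

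The relation was also present within each genotype by Pearson's r. In the 7 HSD17B1-KI mice alone r lay between 0.945 (Lep) and 0.998 (Cidec), with exact permutation p-values from 0.000198 to 0.00198. In the 8 WT mice alone r lay between 0.844 (Retn, exact permutation p = 0.0192) and 0.974 (Car3, exact permutation p = 2.48e-05). Spearman's rho within WT mice was 0.714 for Retn (exact permutation p = 0.0576) and 0.690 for Cfd (exact permutation p = 0.0694), and 0.786 or more for the other 4. Without the 2 mice farthest from the median of Adipoq, HSD17B1-KI 7 and 2, r stayed between 0.903 (Adrb3) and 0.975 (Car3).

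Plin1 had no such relation with Adipoq. Its r was -0.28 over 15 mice (rho -0.07), with unadjusted permutation p = 0.317 for r. It was 0.56 within WT mice (exact permutation p = 0.140), -0.23 within HSD17B1-KI mice (exact permutation p = 0.612) and 0.09 without the 2 mice farthest from the median of Adipoq, so that even its direction changed with the mice used. HSD17B1-KI 7, with the least Adipoq, held 2119 normalized counts of Plin1, more than any WT mouse other than WT 7. By the same measure the 5 genes most like Plin1 were Ksr1, Glis2, Impdh1, Gramd1b and Tmem110 (r from 0.877 to 0.948 over 15 mice), chosen after the values of Plin1 were seen and given with no test.

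**Figure D2:**
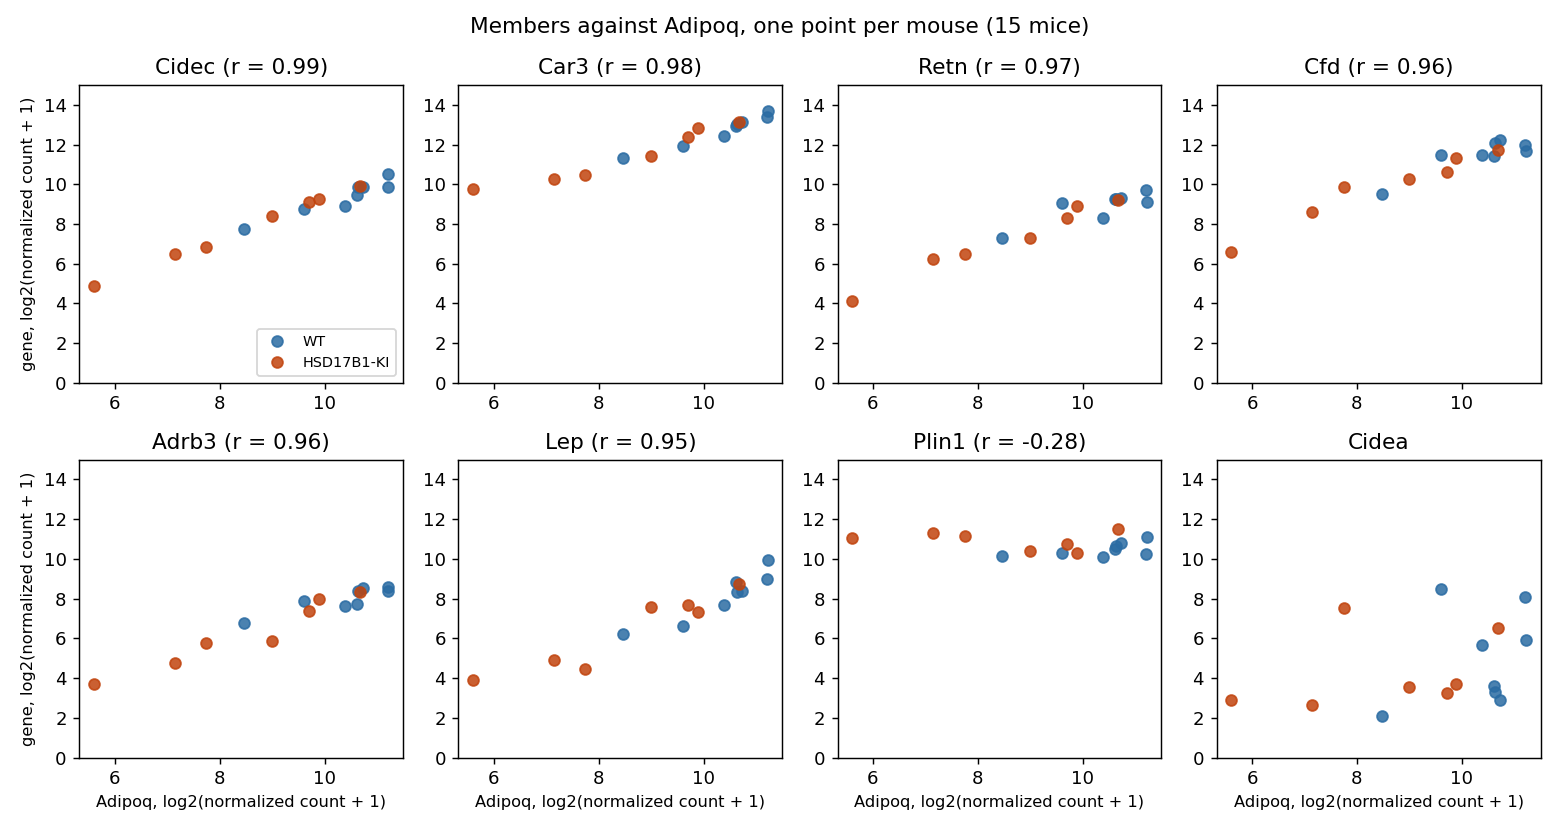
Each panel plots 1 member against Adipoq, both as log2(normalized count + 1), with 1 point per mouse (blue, WT; red, HSD17B1-KI). Cidec, Car3, Retn, Cfd, Adrb3 and Lep lie along a line through both genotypes (r from 0.951 to 0.987), Plin1 is flat (r = -0.28), and Cidea splits into 2 levels at like Adipoq.

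How much of each tested member's level remained where Adipoq was low was read from a straight line of its normalized count on that of Adipoq, a description added after the data were seen. The line of Cidec met zero Adipoq at 41.3 ± 61.6 (SE), which is 7.09% of its mean. For Retn this was 71.8 ± 52.5, for Adrb3 35.5 ± 24.3, for Cfd 533 ± 335 and for Car3 721 ± 406, 12.1% to 22.5% of the gene's mean and less than 2 SE from 0. The line of Lep met it at -53.4 ± 56.3. Plin1, by contrast, kept 1794 ± 270 normalized counts at zero Adipoq, 104% of its mean, and its slope was -0.06 ± 0.20. For Cidea, whose mice fell into separate levels, the line met zero Adipoq at 46.6 ± 52.6, 64.1% of its mean. Its slope was 0.02 ± 0.04, and the level lay between 11.5 and 69.4 without single mice. Leaving out single mice moved that level of Plin1 between 1612 and 1918, that of Cidec between 5.38 and 72.8, of Retn between 40.2 and 89.6, of Adrb3 between 25.7 and 44.4, of Cfd between 356 and 665, of Car3 between 536 and 866 and of Lep between -70.1 and -6.46.

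The log2 ratio of a gene to Adipoq differs between the genotypes by the gene's own log2 fold change minus that of Adipoq. By this arithmetic the 6 members that followed Adipoq differed less than on their own. Plin1 and Cidea differed more, which restates the difference in Adipoq and is no separate result. The log2 ratio to Adipoq differed by 0.06 for Lep (exact permutation p = 0.852), 0.09 for Adrb3 (0.701 by the same test), 0.13 for Retn (0.543) and 0.20 for Cfd (0.387), all higher in HSD17B1-KI mice. It differed by 0.28 for Cidec (exact permutation p = 0.0298) and by 0.55 for Car3 (exact permutation p = 0.0107). Car3 spanned only 14.9-fold over all mice, against 49.8-fold for Adipoq, so its ratio is higher where Adipoq is low in either genotype. Adipoq was lower in HSD17B1-KI mice, which moves the ratio of Car3 the same way, so its p is no separate result. The p of Cidec passed 0.05 without HSD17B1-KI 2, 4, 5 or 6 (up to 0.0606), and the difference of Car3 fell to 0.35 without HSD17B1-KI 7, where 881 normalized counts of Car3 stood beside 47.7 of Adipoq. Plin1 was higher relative to Adipoq by 2.26 (exact permutation p = 0.00451), most of which is the -1.82 of Adipoq itself. The 8 comparisons, including that of Cidea at 1.10 (exact permutation p = 0.362), share Adipoq and were not adjusted.

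With log2 Adipoq as a covariate in limma, the log2 fold changes were 0.26 for Cidec (95% interval -0.06 to 0.59), 0.17 for Lep (-0.57 to 0.90), 0.10 for Car3 (-0.26 to 0.46), 0.06 for Cfd (-0.48 to 0.60), -0.01 for Retn (-0.53 to 0.51) and -0.17 for Adrb3 (-0.73 to 0.38). Each of these intervals held 0. Plin1 stayed at 0.45 (-0.07 to 0.98). Adipoq itself differs between the groups, so this fit compares mice of like Adipoq and does not say what set the level of Adipoq.

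**Figure D3:**
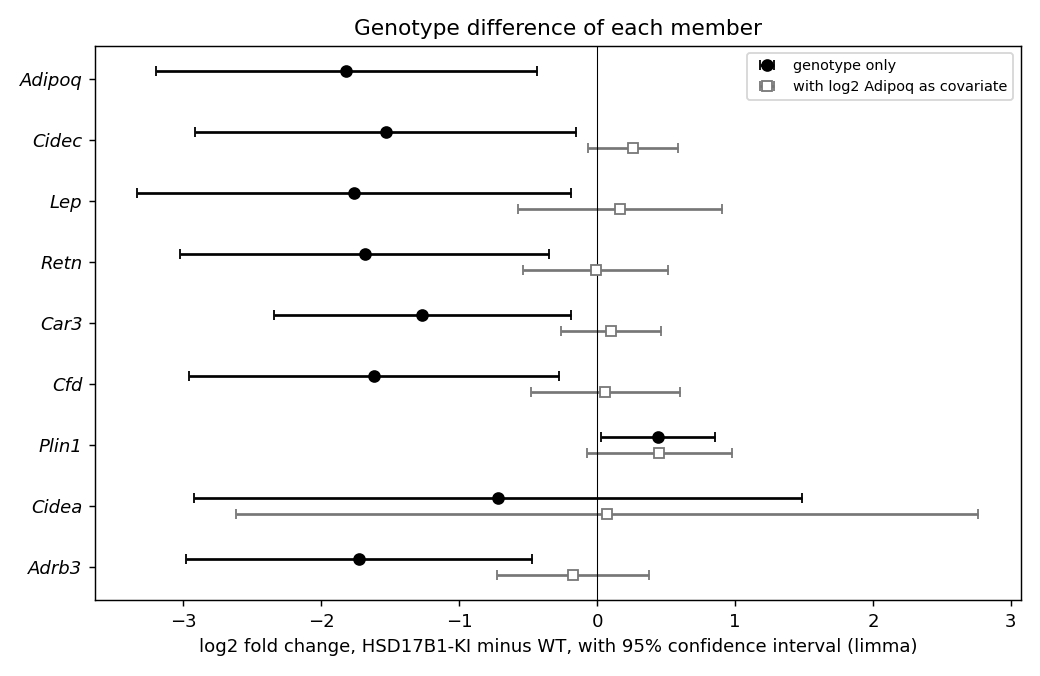
Log2 fold changes (HSD17B1-KI minus WT) of the 9 tested members with 95% confidence intervals from limma, with genotype alone (filled) and with log2 Adipoq as a covariate (open; not for Adipoq). The 6 members that followed Adipoq move from between -1.27 and -1.76 to between -0.17 and 0.26, and Plin1 stays at 0.44 and 0.45.

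The 6 mice with high Cidea were the same 6 mice with Foxj1 above 1500. In these mice Cidea was 50.5 to 364 and Foxj1 1583 to 9884 normalized counts. In the other 9, Cidea was 3.30 to 12.2 and Foxj1 4.40 to 176. Because the mice fell into separate clusters, no correlation over all of them is given. Within the 6 mice, Cidea followed Foxj1 (r = 0.971, rho = 0.886) with exact permutation p-values of 0.00833 and 0.0333, adjusted over 6 relations to 0.0375 and 0.1. It also followed Ovgp1, the oviduct-specific glycoprotein, within them (r = 0.863, rho = 0.943; exact permutation p = 0.0125 and 0.0167, adjusted to 0.0375 and 0.1). Without the 2 mice farthest from the median of the oviduct gene r was 0.978 for Foxj1 and 0.836 for Ovgp1.

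With Adipoq, Cidea had r = -0.34 within the 6 mice (exact permutation p = 0.563, adjusted 0.675), which turned to 0.54 without the 2 farthest mice, and 0.47 within the other 9 (exact permutation p = 0.209, adjusted 0.314). Among the 9, Cidea had r = 0.59 with Foxj1 (exact permutation p = 0.0956, adjusted 0.191), which dropped to 0.04 without the 2 farthest mice, and 0.10 with Ovgp1 (exact permutation p = 0.784). HSD17B1-KI 6 and WT 4 carried Ovgp1 (4185 and 14952 normalized counts) with little Foxj1 (176 and 118), and in them Cidea was 10.7 and 6.41. All 6 genes of the oviduct list were tested between the genotypes and none passed (limma, 0 at an unadjusted p under 0.05). The log2 fold changes ran from -1.96 (Ovgp1) to -0.82 (Foxj1). DESeq2 passed none either, but had 2 lower at an unadjusted p under 0.05, Ovgp1 (log2 fold change -3.24) and Pax8 (-2.40). Over all genes 5.65% were lower at that threshold in DESeq2. The part of oviduct RNA in the level of Cidea was not tested.

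**Figure D4:**
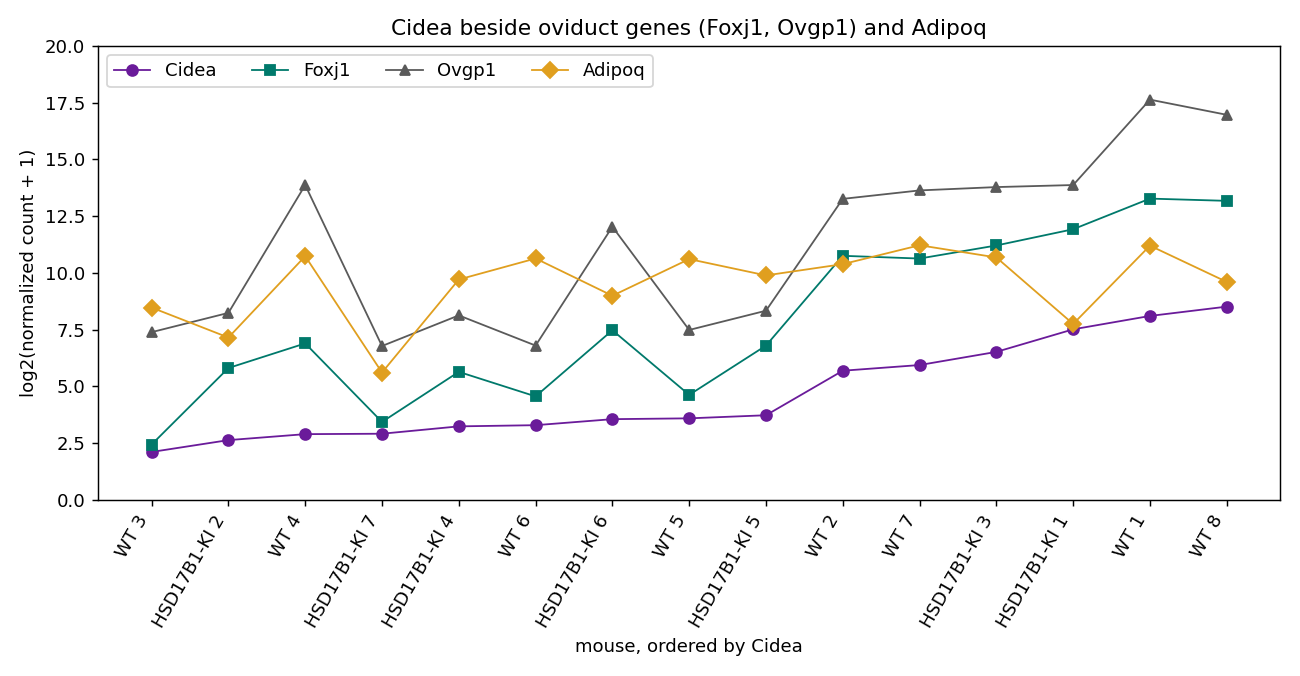
Cidea, the oviduct genes Foxj1 and Ovgp1, and Adipoq in each of the 15 mice, ordered by Cidea, as log2(normalized count + 1); the lines only join the points. The 6 mice on the right with Cidea of 50.5 or more are those with Foxj1 of 1583 or more, whereas Adipoq is high and low on both sides, and WT 4 and HSD17B1-KI 6 have high Ovgp1 with Cidea of 6.41 and 10.7.

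Without the 6 mice that carried Foxj1, a comparison added after the data were seen, 5 HSD17B1-KI and 4 WT mice remained. The difference in Adipoq was -1.84 on the log2 scale (exact permutation p = 0.119), that of Adrb3 was -1.91 (exact permutation p = 0.111) and that of Cidea was 0.24 (exact permutation p = 0.548). The other members that followed Adipoq differed by -1.27 (Car3) to -1.82 (Cfd), and Plin1 by 0.23. The sizes were thus as large for Adipoq, Adrb3, Retn, Cidec, Car3 and Cfd as in all mice, slightly smaller for Lep (-1.67) and smaller by over 1.5 times for Plin1, with fewer mice to test them. The smallest p this design of 126 splits can give is 0.00794.

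Levels were compared between members per kilobase of exon, as the mean over 15 mice of normalized counts. Cfd stood highest at 2573 and Car3 next at 2076, but Cfd was above Car3 in only 10 of 15 mice. Adipoq followed at 790, below Car3 in 15 of 15. Plin1 (371) and Cidec (314) did not keep an order, since Plin1 was the higher in 8 of 15. Their order differed with genotype: the means were 436 for Plin1 and 206 for Cidec in HSD17B1-KI mice, and 315 and 408 in WT mice. Adipoq stood at 448 in HSD17B1-KI mice, close to Plin1, and at 1089 in WT mice. Retn stood at 252, Lep at 79.97, Cidea at 65.3 and Adrb3 at 60.2, where Cidea was above Adrb3 in only 4 of 15 mice and owed its mean to few. Ucp1 was at 0.596.

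Other genes of adipocytes and of their pathways, from lists written with earlier results of these data known, were counted in the same fits. Of the 10 genes most like Adipoq, 6 were members. The other 4 were Slc7a10 (r = 0.974), an amino acid transporter of white adipocytes, Fabp4 (0.961), the fatty acid carrier of adipocytes, Tusc5 (0.958), a regulator of glucose transporter traffic in fat, and Sncg (0.956), gamma-synuclein, each with an adjusted permutation p of 0.00936. Fabp4 ranged from 342 to 2547 in HSD17B1-KI mice (median 1154) and from 1389 to 4229 in WT mice (median 2470), with a log2 fold change of -1.36 ± 0.42 (SE) and limma's adjusted p = 0.235. Slc7a10 ranged from 6.51 to 104 (median 45.2) and from 19.8 to 196 (median 107), with a log2 fold change of -1.28.

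In the list of 16 other adipocyte genes, none passed limma's adjusted threshold. At an unadjusted p under 0.05 in limma, 5 were lower and 2 higher, beside 4.64% and 5.36% of all genes. The median log2 fold change was -0.48, against -0.02 over all genes tested. The lowest was Thrsp at -1.38 (adjusted p = 0.203), a gene switched on when fat is synthesised, and the highest was Cebpa at 0.75 (adjusted p = 0.0748), a transcription factor of adipocytes that other cell types also use. By DESeq2, Thrsp (log2 fold change -1.66, adjusted p = 0.00428) and Cebpa (0.79, adjusted p = 0.00170) passed. Thrsp was highest in WT 1 and WT 8 (2352 and 1625 normalized counts), the mice with the most Foxj1 (9884 and 9230). WT 5 followed at 1247, with 23.6 of Foxj1. The part of oviduct RNA in the level of Thrsp was not tested. The median r with Adipoq in this list was 0.60, against 0.01 over all genes. Of the 16 genes, Fabp4 and Tusc5 had an adjusted p under 0.05 for r with Adipoq. Genes named from here to the end of the paragraph were chosen after their values were seen. Next in order were Pck1 (r = 0.865), Aqp7 (0.797), Lpl (0.779) and Slc2a4 (0.744), each with an adjusted permutation p above 0.05 for r (0.0582, 0.121, 0.157 and 0.323). By Spearman's rho, Lpl, the gene of lipoprotein lipase, passed (rho = 0.886, adjusted permutation p = 0.0344). Near the median of the list was the hormone-sensitive lipase gene Lipe (0.57), and below it Pnpla2, the gene of adipose triglyceride lipase (0.39), and Pparg, which drives adipocyte differentiation (0.20). Their log2 fold changes were -0.12, -0.06 and -0.39. The lowest were Acvr1c, a receptor of the TGF-beta family (r = -0.07, log2 fold change 0.67), and Cebpa (r = -0.51).

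Of the 7 white depot genes, 1 (Slc7a10) passed for r with Adipoq and none between the genotypes, and the median log2 fold change was 0.07. At an unadjusted p under 0.05 in limma, 2 were higher and 1 lower, beside 5.36% and 4.64% of all genes. The highest was Hoxc10 at 0.76 (adjusted p = 0.369), a homeobox gene of posterior body parts. Of the 17 other brown adipocyte genes tested, none passed for r with Adipoq and none between the genotypes in limma. At an unadjusted p under 0.05 in limma, 2 of the 17 were higher and 0 lower, beside 5.36% and 4.64% of all genes. DESeq2 passed 0 of the 15 to which it gave an adjusted p. The median r of the 17 was -0.04 and their median log2 fold change -0.02, as over all genes. The highest was Otop1 at 1.45 (adjusted p = 0.461), a proton channel, with 30.4 normalized counts in HSD17B1-KI 7 and at most 8.28 in every other mouse. The lowest was Plin5 at -1.37 (adjusted p = 0.687), a droplet protein of oxidative tissues that ranged from 65.5 to 4981 within WT mice alone.

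In the triglyceride synthesis list of 14 genes, 0 passed limma's adjusted threshold and the median log2 fold change was -0.04. At an unadjusted p under 0.05 in limma, 2 were lower and 0 higher, beside 4.64% and 5.36% of all genes. The lowest was Mogat1 at -2.05 (adjusted p = 0.336), a monoacylglycerol acyltransferase that DESeq2 called lower (log2 fold change -3.07, adjusted p = 0.00951). Its values in WT mice were 91.6, 63.4 and 95.4 in WT 1, 4 and 8 and at most 9.63 in the other 5, against at most 10.7 in HSD17B1-KI mice. WT 1, 4 and 8 were also the mice with the most Pax8, a gene of the oviduct list (2293, 331 and 1870 normalized counts). Foxj1 was high in WT 1 and 8 (9884 and 9230) but 118 in WT 4. The part of oviduct RNA in the level of Mogat1 was not tested. Elovl6, which lengthens fatty acids, was the highest at 0.47 (adjusted p = 0.697). One gene of this list, Dgat2, passed for r with Adipoq (r = 0.878), but not for Spearman's rho (0.839, adjusted permutation p = 0.120).

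In the list of 12 genes of lipolysis and its adrenergic control, none passed and the median was -0.03. In limma 2 of them were higher and 1 lower at an unadjusted p under 0.05, beside 5.36% and 4.64% of all genes. The ends of the list were the members Adrb3 and Plin1. The 12 lipid droplet proteins gave 0 past the threshold, with 2 higher and 1 lower at that unadjusted p, and a median of -0.01. Their ends were Cidec (-1.53) and Fitm1 (0.50, adjusted p = 0.780), which helps droplets bud from the endoplasmic reticulum. Apart from Cidec no droplet protein passed for r with Adipoq. Of the 7 receptors for adipocyte hormones, none passed in limma. At that unadjusted p 3 were higher and 1 lower, beside the same shares of all genes as above. Adipor2, a receptor for adiponectin, came nearest among the genes of these lists, with 8342 to 13555 normalized counts in HSD17B1-KI mice (median 10292) and 6965 to 8649 in WT mice (median 7708), a log2 fold change of 0.42 ± 0.08 (SE) and an adjusted p of 0.0514, and it was chosen after its values were seen. It passed in edgeR (adjusted p = 0.0468) and DESeq2 (adjusted p = 0.000621). Cdh13, which binds adiponectin at the surface of vessels, was the highest of that list at 0.45 (adjusted p = 0.497), and the leptin receptor gene Lepr the lowest at -0.53 (adjusted p = 0.462).

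**Figure D5:**
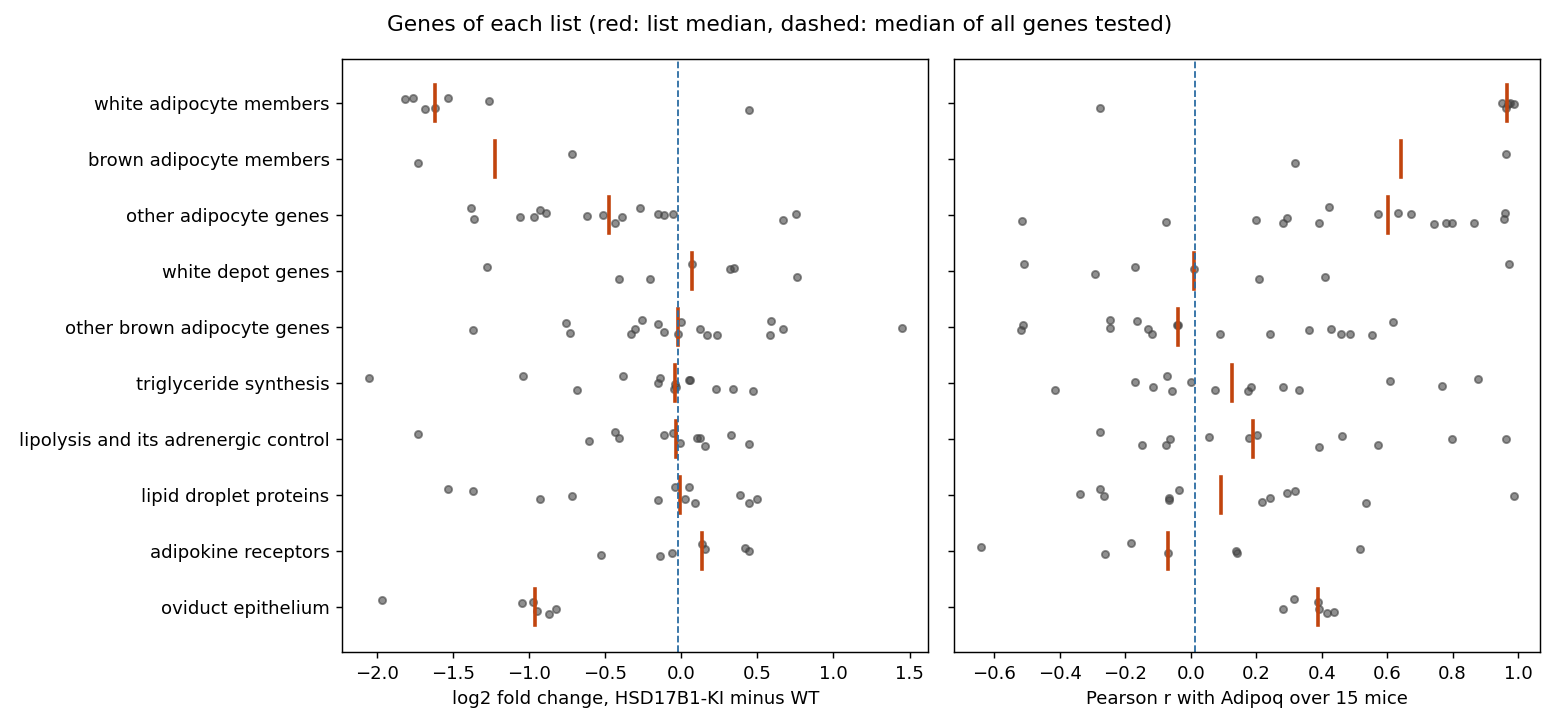
Each grey point is 1 gene of a list, by its log2 fold change (left; HSD17B1-KI minus WT, limma) and by its Pearson r with Adipoq over 15 mice (right); red bars are list medians and dashed lines the medians over all genes tested (-0.02 and 0.01). Members of white adipocytes other than Plin1 sit at the lower end on the left and above 0.95 on the right, and the other brown adipocyte genes spread about the median of all genes (median -0.02 and -0.04).

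Markers of other cells that a fat pad or an ovary may hold were counted the same way, and none passed in limma. Of 5 preadipocyte and stromal genes, the lowest was Pi16 at -0.87 (adjusted p = 0.525) and the highest Cd34 at 0.09, and the 4 genes of capillary endothelium lay between -0.04 (Pecam1) and 0.07 (Gpihbp1). Of skeletal muscle, another tissue with Car3, the 9 genes summed to 260 to 337 normalized counts in HSD17B1-KI mice and 286 to 497 in WT mice. Myh4 had a mean below 2, and the ends were Acta1 (-1.36, adjusted p = 0.224) and Ckm (0.49). Of the 7 genes of surface epithelium and mesothelium, 4 were lower at an unadjusted p under 0.05 in limma, against 4.64% of all genes, and the 7 ran from Krt8 at -0.67 (adjusted p = 0.498) to Upk1b at -0.21 (adjusted p = 0.479). Krt8 was 8635 and 8009 normalized counts in WT 1 and WT 8, the mice with the most Foxj1, and at most 4202 in any other mouse. Erythroid genes lay between -0.01 (Alas2) and 0.27 (Hba-a1). Theca and interstitial genes ran from 0.20 (Hsd3b1) to 1.88 (Cyp17a1). Among them DESeq2 passed Insl3, a peptide hormone of theca cells, at 1.33 (adjusted p = 0.00234), for which limma gave 1.17 (adjusted p = 0.110). Granulosa cell genes ran from -0.05 (Fshr) to 0.74 (Cyp19a1), luteal genes from 0.25 (Ptgfr) to 0.85 (Lhcgr) and oocyte genes from -0.14 (Bmp15) to 0.11 (Zp3). Some of the markers moved with Adipoq over the 15 mice, though none past the adjusted threshold. In the surface epithelium and mesothelium list r lay between 0.31 (Krt7) and 0.74 (Msln; adjusted permutation p = 0.414), with Lrrn4 at 0.70 and Upk3b at 0.62. In the preadipocyte and stromal list it lay between -0.12 (Cd34) and 0.81 (Pi16, adjusted permutation p = 0.121). In the skeletal muscle list it lay between -0.04 (Mylpf) and 0.60 (Acta1, adjusted permutation p = 0.962). In the theca and interstitial list Insl3 went the other way (r = -0.69, adjusted permutation p = 0.651). The part of these cells in the levels of the members was not tested.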

How the data were processed

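Ovarian RNA of 7 HSD17B1-KI and 8 WT mice was sequenced. Per the labels, bcl2fastq 2.20 and STAR 2.7.3 with mm10 were used; the counting program and annotation release are not given in the sources used here. The authors deposited normalized counts (a signal, reads divided by library size factors). All values (100.0%) were whole multiples of each library's smallest step within 0.05, so whole reads were recovered for edgeR and DESeq2. No column was left out.

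The main test was limma 3.58.1 (limma-trend, two-sided) on log2(normalized count + 1), genotype only, over genes averaging 2 or more normalized counts, with Benjamini-Hochberg adjustment at 0.05. edgeR 4.0.16 (quasi-likelihood, TMM) and DESeq2 1.42.0 (R 4.3.3) were alternatives, as were other pseudocounts, filters and scalings, array weights, a replicate block and leaving out each mouse. Exact permutation tests used all 6435 splits (smallest p 0.000155). Correlations with Adipoq used 100000 permutations. Fits were tested on simulated data. Named were all members, the list genes with the highest and lowest log2 fold change, any that passed in limma (those of DESeq2 were added), and the 10 genes most like Adipoq with a mean of at least 10. Members and lists were chosen with earlier results of these data known. Positions and exon lengths came from GENCODE M21, start-site windows from RefSeq. The replicates are separate mice by their labels. Libraries of 26544745 to 72362981 reads leave values of a few normalized counts imprecise. The result of 1 marker list is not reported here.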

Additional observations from a re-analysis of the deposited data

Results flagged for a closer look

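Of 90 groups tested (45 named genes in each genotype), 9 held a mouse that stood apart from its group by Dixon's test, where chance gives about 5%. None of the 18 groups of the 9 tested members was among them. In HSD17B1-KI 7, Otop1 was 30.4 normalized counts, and in WT 4 it was 5.70. WT 4 was also the highest WT mouse for Upk1b (2937), Cyp19a1 (6444) and Zp3 (2295). In WT 5, Hba-a1 was 1140. In HSD17B1-KI 5, Plin5 was 1638. In WT 1, Pi16 was 353 and Acta1 50.9. The cause was not tested.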

How the results depend on the processing

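No member passed the adjusted threshold under any of the 26 alternatives run. Among all genes, against 46 the count past the threshold was 28 with no filter, 125 with array weights, 0 with log2 Adipoq as covariate, 456 with DESeq2 and 6 to 139 when single mice were left out (HSD17B1-KI 2 gave the lowest count and HSD17B1-KI 5 the highest). Of the genes of the fat lists, 0 passed in limma, 1 (Adipor2) with a mean of at least 10, with upper quartile scaling and with edgeR, 2 (with Cebpa) with array weights, 4 with DESeq2, and 0 to 2 without single mice. With the replicate number as a block (mice numbered 1 to 7, which share only a number, with correlations from -0.548 to 0.55) 0 genes passed, against 12 in the same mice without the block.

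With log2 Adipoq as covariate the sign turned for Cidec (0.26), Lep (0.17), Car3 (0.10), Cfd (0.061) and Cidea (0.073), as that fit compares mice of like Adipoq. The r of Plin1 with Adipoq turned to 0.56 within WT and to 0.094 without the 2 farthest mice. The log2 ratio of Lep to Adipoq lay between -0.071 and 0.24 without single mice. Without the 6 mice with high Foxj1, Cidea turned to 0.24. The r of Cidea with Adipoq within the 6 mice with high Cidea turned from -0.34 to 0.54 without the 2 farthest mice. The other fold changes of the members, and the r of the 6 members that followed Adipoq, kept their sign under the alternatives run. Ucp1 has too few reads for any fold change.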
